A study of Mus musculus with 4 samples.

Results

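The NRF2 antioxidant target genes are a set of 10 mouse genes: the transcription factor gene Nfe2l2 itself, Nqo1, Hmox1, Gclc, Gclm, Txnrd1, Srxn1, Slc7a11, G6pdx and Aldh3a1. They were read in 2 resident liver stem cell (RLSC) lines and in MMH-D3, a hepatocytic differentiated line of mouse liver. Members were all probe sets, the groups of short probes that measure a transcript on the Affymetrix Mouse430_2 array, whose platform annotation gave 1 of these symbols alone. This found 18 probe sets of 9 genes among 45101 on the array, and no probe set was named G6pdx here. Glutathione transferases were left out by the rule.

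The data were 4 arrays. MetE14/3 is an RLSC line of clone B2, whose donor embryo carried the cyto-Met transgene and was 14 days post coitum. WTE14/1, the other RLSC line, is wild type and from the same stage, though its source name is WT E14/3. MMH-D3 has 2 arrays, and no label tells if they are separate cultures, or gives the genotype or donor age of the line. Each RLSC line is 1 line on 1 array, picked for palmate colonies, expanded in DMEM with serum and frozen after about 50 generations. All 4 samples share an account of primary culture from foetal and newborn liver, on collagen I in RPMI-1640 with serum, epidermal growth factor, insulin-like growth factor II and insulin. No later medium is given for MMH-D3. Genotype, line and medium therefore cannot be told apart in the RLSC and MMH-D3 comparison.

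NRF2 is a basic leucine zipper factor that is held at a low level by KEAP1, an adaptor that hands it to a CUL3 ubiquitin ligase. When oxidants or electrophiles modify KEAP1, NRF2 accumulates, pairs with a small MAF protein and binds antioxidant response elements in the DNA beside its target genes. The targets make and recycle glutathione and thioredoxin, supply NADPH, break down haem and reduce quinones and aldehydes. Much of this control acts on the protein, so the transcript of Nfe2l2 is not a measure of NRF2 activity.

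Antioxidant response elements were looked for in RefSeq sequence (GRCm38.p6), to show the letters through which these genes are usually read together. The motif was TGACNNNGC or TGAGNNNGC on either strand, within the 250 bases before each start site. Windows were held for 7 of the 10 genes, and 6 of their 9 windows had a match, against 23.0% of 32851 windows of all genes. The matches below are in capitals with their flanking bases, 5′ to 3′ on the strand of the gene, and a match on the other strand reads as the reverse complement of the motif. They lie at chr2:75704875-75704913 (minus strand) for Nfe2l2, chr3:122245403-122245451 (plus) for Gclm, chr10:82859094-82859142 (plus) for Txnrd1, chr2:152105346-152105394 and chr2:152105459-152105507 (plus) for Srxn1 and chr3:50443682-50443730 (minus) for Slc7a11.
Nfe2l2: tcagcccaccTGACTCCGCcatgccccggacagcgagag
Gclm: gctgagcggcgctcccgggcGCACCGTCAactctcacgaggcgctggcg
Txnrd1: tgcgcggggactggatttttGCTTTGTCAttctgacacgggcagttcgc
Srxn1, first match: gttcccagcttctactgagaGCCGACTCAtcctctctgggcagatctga
Srxn1, second match: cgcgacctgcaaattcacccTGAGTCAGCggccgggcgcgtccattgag
Slc7a11: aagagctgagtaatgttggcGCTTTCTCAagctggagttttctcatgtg

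The Txnrd1 match is in 1 of its 3 windows, the Nqo1 window had none, and G6pdx, which has no signal here, had a match that is not shown. A match is a description of these letters and not evidence of binding.

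Signals are the deposited values on a linear intensity scale. The trimmed mean was 200.001 on every array, and array medians ran from 16.9 to 27.98. Signals of the Gapdh control probe sets at the 3′ end were 0.745 to 0.826 of those at the 5′ end, and for actin 1.13 to 1.24. The 24 poly-A spike-in control probe sets were a median of 10.6-fold higher on MetE14/3 and MMH-D3 array 1 than on WTE14/1 and MMH-D3 array 2. Each of these array pairs holds 1 array of each group, and differences are given within both. On the first pair all values had at most 1 decimal, against 1.41% on WTE14/1 and 1.32% on MMH-D3 array 2.

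Both cell types were checked against markers. Albumin (Alb), the defining hepatocyte gene, read 1.70 in MetE14/3 and 2.91 in WTE14/1, with 44.7 and 440 on MMH-D3 arrays 1 and 2. Of the 9 hepatocyte markers with a probe set, the mature markers Cps1, Tat and Cyp3a11 averaged under the filter level, and read 1.14 to 10.9 on the MMH-D3 arrays. The 9 summed to 387 and 224 in the RLSC lines, with 5477 and 9869 for MMH-D3. The MMH-D3 sums were mostly Apob, Hnf4a and Afp, joined by Apoa1 on array 2. Apoa1 read 20.9 on MMH-D3 array 1 and 2002 on array 2. Ttr overlapped between the groups, at 9.2 and 9.32 in the RLSC lines and 6.7 and 160 for MMH-D3. The 6 stellate and fibroblast markers summed to 1911 in MetE14/3 and 9226 in WTE14/1, mostly Acta2, with 70.6 and 105 for MMH-D3. Acta2 and Pdgfrb were higher in both RLSC lines, while Des, Lrat, Col1a1 and Col3a1 overlapped between the groups. Des read 7.4 and 19.6 in the RLSC lines, with 11.5 and 37.7 for MMH-D3. The 4 bile duct markers summed to 9072 and 4164 in the RLSC lines, with 13399 and 16358 for MMH-D3, nearly all Krt19 and Krt7, while Sox9 of that list went the other way, at 277 and 183 in the RLSC lines and 38.3 and 1.33 for MMH-D3. The 3 mesothelial markers summed to 2974 and 2137 in the RLSC lines, with 6348 and 11582 for MMH-D3, nearly all Msln. Wt1 of that list read 9.2 and 14.8 in the RLSC lines, with 192 and 398 for MMH-D3. Upk3b had 1.9 and 15.7 in the RLSC lines, with 83.3 and 29.7 for MMH-D3. The RLSC lines also differed from each other, and among hepatocyte markers Hnf4a read 205 in MetE14/3 and 6.76 in WTE14/1. Some of these markers move with the groups, with the RLSC line or between the MMH-D3 arrays, and others overlap between the groups. Their part in the results below was not tested.

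The study set the expression profile of RLSC beside that of MMH-D3. By signal, Nfe2l2 at 1 of its 2 probe sets, Nqo1, both Slc7a11 probe sets and Aldh3a1 were lower in both RLSC lines than on either MMH-D3 array, and Hmox1 was higher. The 11 probe sets of the thioredoxin and glutathione synthesis genes Txnrd1, Srxn1, Gclc and Gclm differed by -1.08 to 0.71 on the log2 scale. None of the 18 member probe sets passed limma at an adjusted p of 0.05, against 187 of 27022 probe sets tested, or 0.692%. At an unadjusted p under 0.05 there were 6 of 18, with 5 lower and 1 higher in RLSC, against 10.9% of all probe sets. The members were chosen with earlier results of these data known, so these shares are no test of them. The median difference, RLSC minus MMH-D3 in log2(signal + 4) after quantile normalization, was -0.35 over the members and 0.06 over all probe sets tested. The member median rests on single arrays, at 0.03 without MMH-D3 array 1, -0.64 without MMH-D3 array 2, -0.19 without WTE14/1 and -0.42 without MetE14/3.

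All 18 member probe sets passed the filter on low values, a mean signal of at least 13.8. On the deposited signals both RLSC lines lay below both MMH-D3 arrays at 5 member probe sets and above both at 4 (Hmox1, Gclc 1455959_s_at and Txnrd1 1424486_a_at and 1424487_x_at), while the groups overlapped at the other 9. Over all probe sets tested these shares were 14.7% below and 24.9% above. After normalization the members' counts were 7 below and 5 above, beside 19.4% and 21.5% of all probe sets. Differences had the same sign in both array pairs for 15 of the 18, against 16105 of the 27022.

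**Figure D1:**
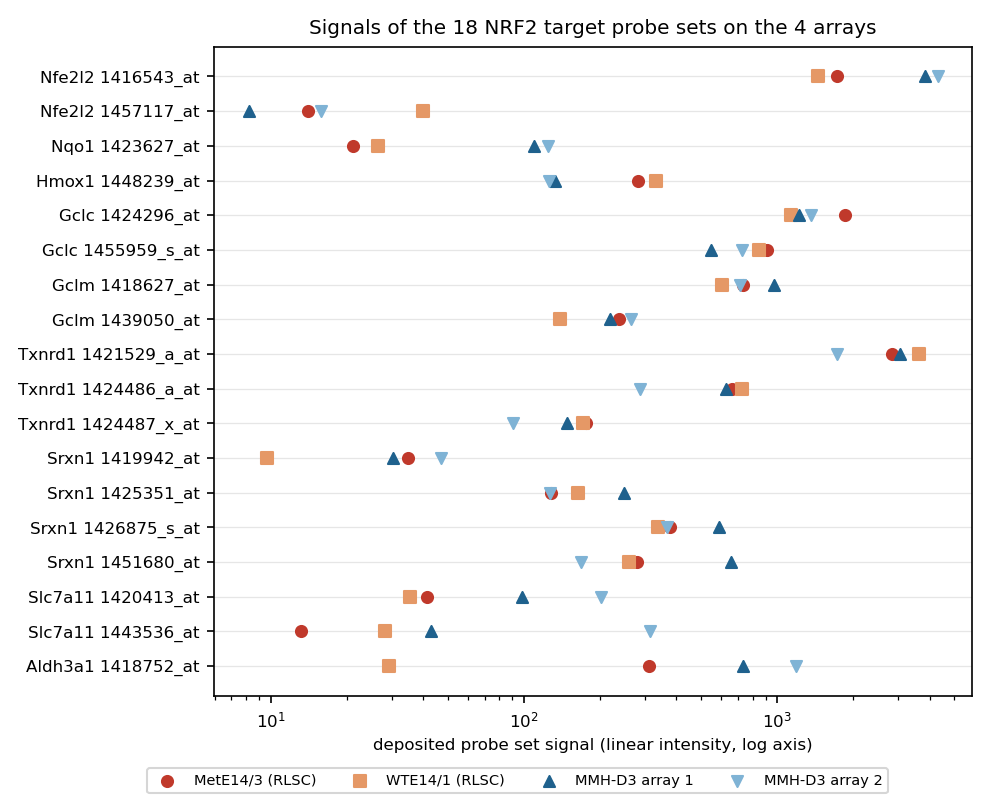
Deposited signal (linear intensity, log axis) of each member probe set in MetE14/3, WTE14/1 and the 2 MMH-D3 arrays, 1 point per array. Nfe2l2 1416543_at, Nqo1, Slc7a11 and Aldh3a1 have both RLSC points left of both MMH-D3 points, and Hmox1 has them to the right.

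Nfe2l2 encodes NRF2 itself. Its probe set 1416543_at read 1720 in MetE14/3 and 1446 in WTE14/1, with 3845 and 4295 on MMH-D3 arrays 1 and 2. The groups did not overlap, and the gap between them was wider than the gap within either. The mean was 1583 ± 194 in RLSC and 4070 ± 318 for MMH-D3 (SD, n = 2 each). The difference of -1.31 (SE 0.27), or 2.47-fold lower in RLSC, did not pass (limma adjusted p = 0.137, unadjusted p = 0.00279). It was -1.07 within the first array pair and -1.54 within the second, and between -1.44 and -1.16 when any array was left out. Taken as the median of the gene's probe sets it was -0.31.

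The other Nfe2l2 probe set, 1457117_at, lay near the filter level, at 14.0 in MetE14/3 and 39.97 in WTE14/1, with 8.20 and 15.7 for MMH-D3. The MMH-D3 mean of 11.97 was under that level, so the probe set passed the filter only through RLSC. These groups overlapped, and the difference of 0.68 (SE 0.61) had the opposite sign. The lower level in RLSC thus rests on 1 of the 2 probe sets of the gene.

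Nqo1 encodes a quinone reductase that spends NADPH to turn quinones into hydroquinones, and it is widely used to read NRF2 activity. It read 21.2 in MetE14/3 and 26.6 in WTE14/1, with 109 and 124 on MMH-D3 arrays 1 and 2. The arrays of each group lay close together and far from the other group. With a mean of 23.9 ± 3.80 in RLSC and 117 ± 10.7 for MMH-D3 (SD, n = 2 each), the difference was -2.29 (SE 0.43), or 4.89-fold lower in RLSC. This was the smallest adjusted p of the members and it did not pass (limma adjusted p = 0.104, unadjusted p = 0.00161). Within the array pairs it was -2.27 and -2.30, and the 95% interval ran from -3.33 to -1.25.

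Aldh3a1 encodes an aldehyde dehydrogenase that clears aldehydes from lipid peroxidation, and in the mouse it is also induced through the aryl hydrocarbon receptor. It read 310 in MetE14/3 and 29.3 in WTE14/1, with 735 and 1183 on MMH-D3 arrays 1 and 2. Both RLSC lines were below MMH-D3, but they stood further from each other than the MMH-D3 arrays did. The difference was -3.37 (SE 1.11), the largest of the members, and did not pass (limma adjusted p = 0.331). It was -1.63 without WTE14/1, and without MetE14/3 it was -5.10 and passed (limma adjusted p = 0.0488), with WTE14/1 then the only RLSC array.

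Slc7a11 encodes xCT, the light chain of the exchanger that takes up cystine for glutathione synthesis. Its probe set 1420413_at read 41.3 in MetE14/3 and 35.5 in WTE14/1, with 97.8 and 201 on MMH-D3 arrays 1 and 2. The probe set 1443536_at had 13.2 in MetE14/3 and 28.2 in WTE14/1, with 42.8 and 313 for MMH-D3. Both probe sets placed RLSC below MMH-D3, and both read higher on MMH-D3 array 2 than on array 1.

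The Slc7a11 differences were -2.01 (SE 0.49, limma adjusted p = 0.192) and -2.62 (SE 0.82, limma adjusted p = 0.304), so neither passed. Without MMH-D3 array 2 the second was -1.42. Slc3a2, the heavy chain that carries xCT to the membrane, read 2135 in MetE14/3 and 1716 in WTE14/1, with 2700 and 2362 for MMH-D3, a difference of -0.32 (SE 0.28).

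Slc7a11 is a known target of ATF4, the factor of the amino acid and endoplasmic reticulum stress response, as well as of NRF2. Of 15 listed genes of that response, 6 were at least 4-fold apart between the MMH-D3 arrays, all higher on array 2, against 6.18% of all probe sets. Others were not higher there, such as Phgdh at 4752 on array 1 and 3422 on array 2, and Psat1 at 4381 and 3904. Trib3, a pseudokinase induced by ATF4, read 103 in MetE14/3 and 102 in WTE14/1, with 120 and 2907 for MMH-D3. The stress factor Ddit3 had 188 and 380 in the RLSC lines, with 182 and 3825 for MMH-D3. Over the 15 genes the summed signal was 18864 and 18286 in the RLSC lines, with 19750 and 39404 for MMH-D3. Their part in the Slc7a11 signals was not tested.

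Hmox1 encodes haem oxygenase 1, which breaks haem into biliverdin, carbon monoxide and iron. It read 282 in MetE14/3 and 333 in WTE14/1, with 133 and 125 on MMH-D3 arrays 1 and 2. It was the member with the largest difference upwards, and its groups did not overlap. The mean was 308 ± 36.4 in RLSC and 129 ± 5.57 for MMH-D3 (SD, n = 2 each), which differ by 1.14 (SE 0.44), or 2.20-fold higher in RLSC. It did not pass (limma adjusted p = 0.421, unadjusted p = 0.0392). It was 0.86 and 1.42 within the array pairs.

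Macrophages also express Hmox1. The 5 macrophage and blood markers Ptprc, Adgre1, Cd68, Csf1r and Lyz2 summed to 103 in MetE14/3 and 149 in WTE14/1, with 110 and 154 for MMH-D3. These sums overlapped between the groups, and Ptprc was under the filter level. As in any bulk RNA, fewer cells with a transcript and less of it per cell cannot be told apart.

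**Figure D2:**
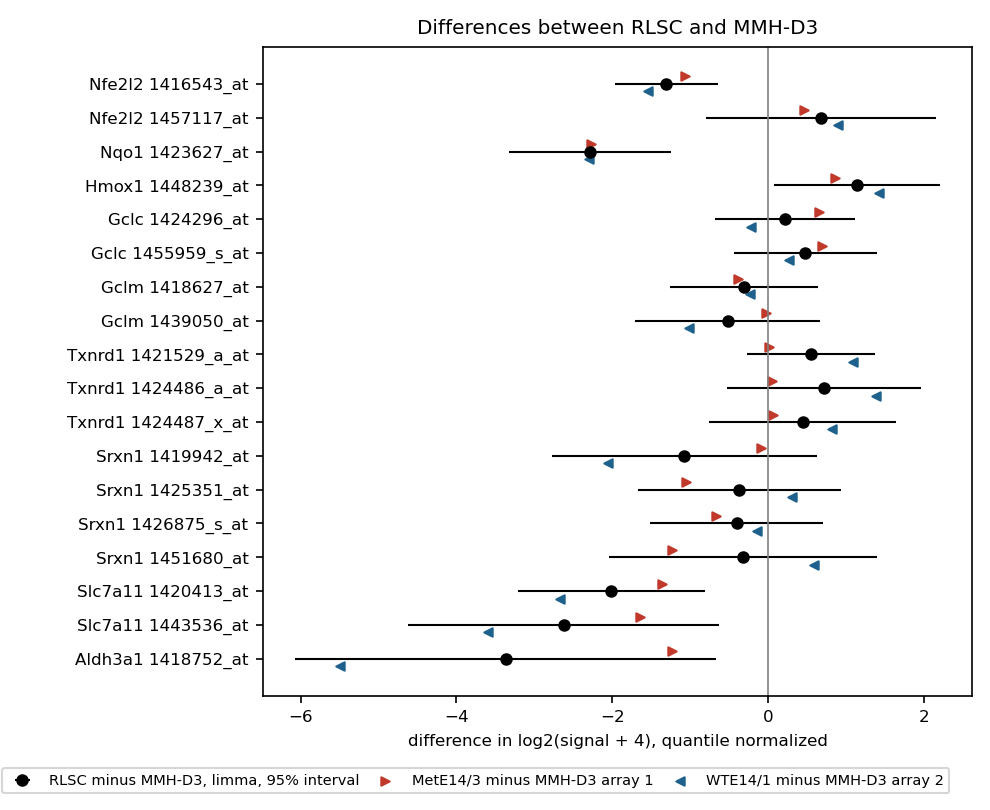
Difference between RLSC and MMH-D3 in log2(signal + 4) for each member probe set, with its 95% interval from limma (2 arrays a group), and the differences within the 2 array pairs as triangles. The intervals of Nfe2l2 1416543_at, Nqo1, Slc7a11 and Aldh3a1 lie below 0 and that of Hmox1 above it, before adjustment for the number of probe sets tested.

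Gclc and Gclm encode the catalytic and the modifier subunit of glutamate-cysteine ligase, the first and rate-limiting step of glutathione synthesis. The Gclc probe set 1424296_at read 1858 in MetE14/3 and 1136 in WTE14/1, with 1222 and 1357 on MMH-D3 arrays 1 and 2. The RLSC lines lay on either side of MMH-D3, and the difference was 0.22 (SE 0.37, 95% interval -0.68 to 1.11). For 1455959_s_at the signals were 909 and 845 in the RLSC lines, with 547 and 724 for MMH-D3. There both lines were above both MMH-D3 arrays, by 0.48 (SE 0.38), without passing.

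The Gclm probe set 1418627_at read 730 in MetE14/3 and 604 in WTE14/1, with 967 and 715 on MMH-D3 arrays 1 and 2. The second Gclm probe set, 1439050_at, had 236 and 139 in the RLSC lines, with 218 and 266 for MMH-D3. Both sets of signals overlapped, and the differences of -0.31 (SE 0.39) and -0.52 (SE 0.49) did not pass. The intervals reach a 2-fold change in at least 1 direction for every Gclc and Gclm probe set, so they do not show that the lines were alike.

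Txnrd1 encodes cytosolic thioredoxin reductase, which keeps thioredoxin reduced with electrons from NADPH. Of its 3 probe sets, 1421529_a_at read 2837 in MetE14/3 and 3626 in WTE14/1, with 3045 and 1724 on MMH-D3 arrays 1 and 2. The probe set 1424486_a_at had 664 and 728 in the RLSC lines, with 627 and 287 for MMH-D3. All 3 probe sets read lowest on MMH-D3 array 2, and MetE14/3 minus array 1 was 0.01 to 0.064 on the log2 scale after normalization.

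The Txnrd1 differences of 0.44 to 0.71 did not pass, and without MMH-D3 array 2 they were -0.017 to 0.20. MMH-D3 array 2 thus decided their size. The suffix _x_at of the probe set 1424487_x_at marks probes that may also bind other transcripts.

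Srxn1 encodes sulfiredoxin, which restores overoxidised peroxiredoxins. Its probe set 1451680_at read 281 in MetE14/3 and 259 in WTE14/1, with 656 and 168 on MMH-D3 arrays 1 and 2. The probe set 1425351_at, designed on the same transcript record, had 128 and 163 in the RLSC lines, with 248 and 127 for MMH-D3. In both, the MMH-D3 arrays lay on either side of the RLSC lines.

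The probe set 1426875_s_at had 376 and 338 in the RLSC lines, with 591 and 367 for MMH-D3. Of the 4 probe sets, 1419942_at alone read lower on MMH-D3 array 1 than on array 2, at 30.4 and 47.0, with 34.9 and 9.64 in the RLSC lines. The 4 Srxn1 differences ran from -1.08 to -0.33 and did not pass. Without MMH-D3 array 1, those of 1425351_at and 1451680_at were 0.20 and 0.66.

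The spread within groups was set against these differences. MetE14/3 and WTE14/1 were at least 4-fold apart at 1 member probe set, Aldh3a1 (11.7-fold higher in MetE14/3), against 5.13% of all probe sets tested. The MMH-D3 arrays were at least 4-fold apart at 2, Slc7a11 1443536_at (5.34-fold, higher on array 2) and Srxn1 1451680_at (4.01-fold, higher on array 1), against 6.18% of all. With 1 array a line there was no test. MetE14/3 and WTE14/1 differ in line, in the cyto-Met transgene and in array pair, and these cannot be told apart.

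**Figure D3:**
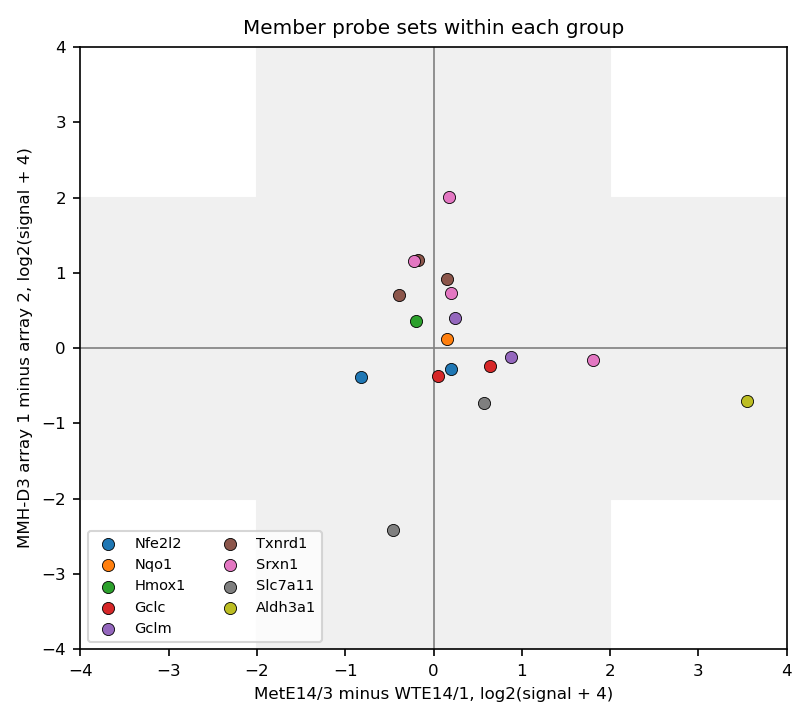
Each point is a member probe set, with the difference between the RLSC lines on the x axis and between the MMH-D3 arrays on the y axis, both in log2(signal + 4) after normalization. The grey bands mark less than a 4-fold difference along either axis. Aldh3a1 lies at 3.55 on the x axis, and Slc7a11 1443536_at at -2.42 and Srxn1 1451680_at at 2.00 on the y axis.

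The aryl hydrocarbon receptor gene Ahr read 1697 in MetE14/3 and 227 in WTE14/1, with 1161 and 858 on MMH-D3 arrays 1 and 2. Ahr and Aldh3a1 were therefore both lowest in WTE14/1. Cyp1b1, a cytochrome P450 gene of that receptor's response, had 2596 and 2474 in the RLSC lines, with 1272 and 108 for MMH-D3. These were from its brightest probe set, where the MMH-D3 arrays were 11.5-fold apart. A second Cyp1b1 probe set went the same way, and the third, under the filter level, was lower in RLSC. Tiparp, a feedback inhibitor of the receptor, had 282 and 206 in the RLSC lines, with 480 and 270 for MMH-D3. Of the 8 listed genes 6 were tested and none passed. The part of Ahr in the Aldh3a1 signals was not tested.

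Among 15 genes that control NRF2, 14 were tested at 1 probe set each, and 1 passed, Bach2, a repressor that competes for the same kind of element. Over all 32 tested probe sets of these genes 2 passed, both of Bach2, against 0.692% of all probe sets tested. The Bach2 probe set 1437667_a_at read 136 in MetE14/3 and 248 in WTE14/1, with 7 and 7.62 on MMH-D3 arrays 1 and 2. It was higher in both RLSC lines (3.93, SE 0.49, limma adjusted p = 0.0389). The probe set 1436515_at, at 125 and 147 in the RLSC lines and 0.80 and 1.54 for MMH-D3, also passed (4.67, limma adjusted p = 0.0296). The third, 1445460_at, did not (0.56, limma adjusted p = 0.860). The MMH-D3 signals of the first and second lie under the filter level, so both passed the filter only through RLSC, and their sizes have no firm value: pseudocounts of 16 and 1 gave 3.02 and 4.33 for 1437667_a_at, and 3.07 and 5.88 for 1436515_at. Both calls were also lost in several settings. Without a filter the limma adjusted p was 0.106 for 1437667_a_at and 0.0777 for 1436515_at. With any array left out it ran from 0.0636 to 0.326 and from 0.0944 to 0.275.

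Keap1 read 332 in MetE14/3 and 335 in WTE14/1, with 462 and 564 for MMH-D3, a difference of -0.65 (SE 0.41), and did not pass. Bach1, a repressor of Hmox1, had 421 and 589 in the RLSC lines, with 495 and 1132 for MMH-D3, which overlapped. The genes named for their mean signal were Sqstm1, an autophagy receptor that binds KEAP1 (-0.01, SE 0.46), Park7, a redox-sensitive chaperone (0.26, SE 0.32), and Cul3 (0.10, SE 0.34). None of these passed.

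Other NRF2 target genes were lower in RLSC by signal more often than higher. Of 32 listed genes 27 had a probe set and 25 were tested. None passed, while 9 were lower and none higher at an unadjusted p under 0.05, against 10.9% of all probe sets in either direction. Both RLSC lines lay below both MMH-D3 arrays on the deposited signals for 13 of the 25, against 14.7% of all, and above both for none. The list median was -0.63, against 0.06 over all probe sets tested. This list, like the others, was chosen with earlier results of these data known. It takes the brightest probe set of each gene, while the shares of all cover every probe set tested, so the comparisons are not on like terms. Genes of this list were named after their values had been seen, except Txn1, Fth1 and Tkt.

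Me1, the malic enzyme that supplies NADPH, read 910 in MetE14/3 and 691 in WTE14/1, with 2717 and 5085 for MMH-D3 (-2.17, SE 0.43, limma adjusted p = 0.122). The glutathione synthetase gene Gss had 416 and 344 in the RLSC lines, with 1064 and 1445 for MMH-D3 (-1.72, SE 0.41). Glutathione reductase (Gsr) had 1336 and 678 in the RLSC lines, with 4070 and 2486 for MMH-D3 (-1.69, SE 0.43). All 3 were lower in both RLSC lines than on either MMH-D3 array, and none passed.

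Cbr1, a carbonyl reductase, had 162 in MetE14/3 and 33.2 in WTE14/1, with 467 and 816 for MMH-D3 (-3.17, SE 0.85). Blvrb, a biliverdin reductase, had 99.6 and 38.7 in the RLSC lines, with 187 and 274 for MMH-D3 (-2.02, SE 0.63), the opposite direction to Hmox1. Of the genes named for their mean signal, Txn1 (thioredoxin) differed by -0.20 (SE 0.23), Fth1 (ferritin heavy chain) by -0.01 (SE 0.19) and Tkt (transketolase) by -0.40 (SE 0.23).

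Of these 25 genes 21 were higher in MetE14/3 than in WTE14/1, against 13202 of 27022 probe sets tested and 12 of the 18 member probe sets. Cbr1, the export pump gene Abcc3, the phosphatase gene Entpd5 and the alcohol dehydrogenase gene Adh7 were at least 4-fold apart, 4 of 25 against the 5.13% above. For Entpd5 this held only at its brightest probe set, 1417382_at (6.29-fold), and its other tested probe sets were 1.60- to 2.79-fold apart. Abcc3 read 908 in MetE14/3 and 125 in WTE14/1, with 2091 and 2504 on MMH-D3 arrays 1 and 2. As with Aldh3a1, WTE14/1 was the lower line and MMH-D3 the higher group. Line, genotype and array pair cannot be told apart in these differences between MetE14/3 and WTE14/1.

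**Figure D4:**
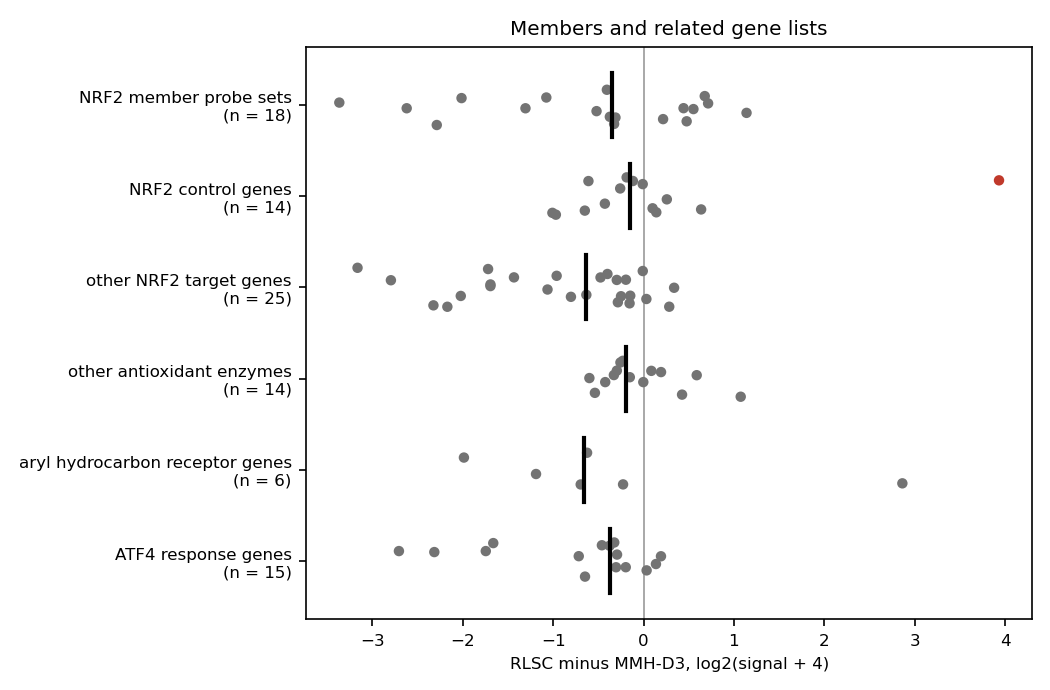
Difference between RLSC and MMH-D3 in log2(signal + 4) for the 18 member probe sets and for 1 probe set a gene (that of highest mean signal) of 5 related lists, with the median of each as a black bar. Red marks an adjusted p under 0.05, which only Bach2 has, and the medians run from -0.66 for the aryl hydrocarbon receptor genes to -0.15 for the NRF2 control genes.

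Of 17 listed antioxidant enzymes outside the usual NRF2 lists 14 were tested at 1 probe set each, where none passed and none had an unadjusted p under 0.05. Over all 33 probe sets of these genes that were tested, 1 passed, of Prdx2, against 0.692% of all probe sets tested. The glutathione peroxidases Gpx4 (-0.42, SE 0.19) and Gpx1 (0.43, SE 0.26) and the peroxiredoxin Prdx2 at 1418506_a_at (0.09, SE 0.22) were named for their mean signal. The other Prdx2 probe set, 1430979_a_at, read 625 in MetE14/3 and 1175 in WTE14/1, with 46.7 and 57.98 for MMH-D3. It was higher in RLSC (3.84, SE 0.51, limma adjusted p = 0.0444), so the probe sets of this gene disagree. Settings in which that call was lost included a pseudocount of 1 (limma adjusted p = 0.0508), no filter (limma adjusted p = 0.0777) and any array left out. The list median was -0.19. Of the 15 genes of the ATF4 response none passed, with a median of -0.38, and the genes named for their mean signal were Phgdh (0.03, SE 0.29), Psat1 (-0.20, SE 0.22) and Asns (-0.38, SE 0.36), all of serine or asparagine synthesis.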

How the data were processed

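RNA of 2 RLSC lines and 2 MMH-D3 samples was labelled and hybridised to 4 Affymetrix Mouse430_2 arrays. The authors deposited probe set intensity values made with GCOS, per the submitters' processing notes, and the sources used here give neither version nor settings. Members and gene lists were chosen with earlier results of these data known. Names came from the platform annotation, where 34945 probe sets had 1 symbol, 932 several and 9160 none here, without the 64 controls. Of the first, 34741 matched a RefSeq gene table (GRCm38.p6) by Entrez identifier.

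Values entered as log2(value + 4) and were quantile normalized, since array medians differed by 0.61 on that scale. Probe sets under the 40th percentile of the mean signal (13.8) were removed, and 27022 were fitted with limma 3.58.1 in R 4.3.3 (lmFit, eBayes with trend, 2 residual and 4.17 prior degrees of freedom), two-sided, with Benjamini-Hochberg adjustment over all of them. Differences are RLSC minus MMH-D3 and folds are on the log2(value + 4) scale, which understates those of dim probe sets. The fit was tested on simulated data with the same independent noise at every probe set and no array pairs. That does not show how it behaves on these arrays. P-values reflect only how far these arrays differ, and 4 arrays limit the precision. That spread may be technical in both groups, as each holds 1 array of each pair, and in RLSC also between lines. List genes were represented by their brightest probe set. All members were named, with called genes and the 3 most abundant of each list. Keap1, Bach1, Slc3a2, Trib3, Ddit3, Gss, Gsr, Me1, Cbr1, Blvrb, Abcc3, Adh7 and Entpd5 were chosen after their values had been seen. So were Prdx2 1430979_a_at and the cell type markers named on their own, such as Alb, Hnf4a, Sox9, Apoa1, Ttr and Des. Pseudocount, normalization, filter, gene level, trend, a block for the poly-A pairs and each array left out were tried as alternatives.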

Additional observations from a re-analysis of the deposited data

How the results depend on the processing

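No analysis paired by label was possible because the RLSC labels carry no replicate numbers. The array pairs seen in the poly-A controls, which no label names, were fitted as a block instead, and no member passed. Over 9 alternatives that kept all arrays, no member tested was called and none changed sign. The filter at the 60th percentile tested 16 members, without Nfe2l2 1457117_at and Srxn1 1419942_at, and both gene-level settings tested 9 genes. All probe sets called were 187, against 124 with a pseudocount of 1, 40 without a filter, 105 genes at gene level by the highest mean, 60 without the intensity trend, and 0 to 212 when 1 array was left out (0 without either MMH-D3 array). Members called were 0, and 0 to 1 when 1 array was left out. Calls over all probe sets were more without quantile normalization, at 257, and in the poly-A block fit, at 111 higher and 150 lower. Members at least 4-fold apart between the RLSC lines were 1, and 2 with a pseudocount of 1. Leaving out 1 array turned the sign of 4 member differences: Gclc 1424296_at (-0.11 to 0.54), Srxn1 1425351_at (-0.96 to 0.20) and 1451680_at (-1.34 to 0.66), and Txnrd1 1424487_x_at (-0.017 to 0.87). Among list genes it did so for Phgdh (-0.24 to 0.30), Sqstm1 (-0.73 to 0.68), Fth1 (-0.19 to 0.18), Cul3 (-0.11 to 0.31), Txn1 (-0.46 to 0.11), Prdx2 (-0.055 to 0.23), Ahr (-2.18 to 0.79), Park7 (-0.014 to 0.52), Asns (-0.84 to 0.092), Adh7 (-2.01 to 0.43), Bach2 1445460_at (-0.28 to 1.44) and Ddit3 (-3.78 to 0.37). With the median of probe sets, Phgdh was -0.18, Sqstm1 0.44 and Fth1 0.0059, Prdx2 moved to 1.97 against 0.09 (limma adjusted p = 0.0911), and Phgdh was -0.048 without quantile normalization. The cause was not tested. Signals near the filter level (Nqo1, Slc7a11 1443536_at and Srxn1 1419942_at in RLSC, and Nfe2l2 1457117_at in both groups) are the least certain.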
